A study of Drosophila melanogaster with 4 samples.

Results

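The centromere-proximal 3 Mb of chromosome arm 3R, from base 1 to base 3000000 on FlyBase release 5, held 353 of the 11471 regions enriched for Su(var)3-7 in nuclei of third-instar Drosophila melanogaster larvae. These 353 clusters were all enriched clusters of the list for the replicate set that lay on 3R and started at or below base 3000000. Their choice used position only. The list for ChIP replicate 1 held 234 clusters under the same limit and that for ChIP replicate 2 held 190. The study comprised 2 libraries of chromatin precipitated with the Su(var)3-7 antibody Q3448 and 2 libraries of input chromatin, each input serving as the control of the ChIP library of the same number. All 4 libraries came from the wild-type strain Oregon-R (Oregon-R-modENCODE) at the third larval instar, and no mutant, treated or mock-antibody library is part of the comparison. No label says whether separate batches of larvae gave the replicates, so the spread between them may be technical. The value of a cluster is its enrichment of ChIP over input as the authors deposited it, on a scale inferred from the values to be log2. The lists hold no read counts, so the depth behind each value is unknown.

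Su(var)3-7 is a large zinc-finger protein that binds the heterochromatin protein HP1a and is concentrated in pericentric heterochromatin of polytene chromosomes. Its gene was found as a dose-dependent modifier of position-effect variegation, the patchy silencing of genes moved next to heterochromatin. Pericentric heterochromatin is rich in repeated sequence and in histone H3 methylated on lysine 9. Release 5 places more centric sequence of this arm on the separate scaffold 3RHet. Where the heterochromatin begins on the assembled arm is not given by these lists. No sequence or gene of release 5 was used here, so the regions are given by their coordinates.

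Clusters were dense in the proximal 3 Mb of 3R and sparse along the remainder of the arm. They covered 25.2% of the proximal bases in replicate 1 and 18.3% in replicate 2, against 5.68% and 4.85% of the rest of the arm, from 3000001 to 27905053. The mean was 21.8% ± 4.90 in the proximal 3 Mb and 5.27% ± 0.59 in the rest (SD, n = 2 each), a ratio of 4.11 ± 0.47 (SD, n = 2). Both replicates had the higher cover in the proximal 3 Mb, and the gap was larger than the spread between them. The proximal 3 Mb make up 10.8% of the arm but held 34.9% and 31.3% of its covered bases and 28.2% and 25.5% of its clusters in replicates 1 and 2. With 2 paired replicates the smallest two-sided p of an exact permutation test is 0.5, and none is given for this or any later comparison. The cover depended on the list used. It was 36.0% in the replicate-set list and averaged 11.8% among clusters at or above the median value of each replicate list.

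**Figure D1:**
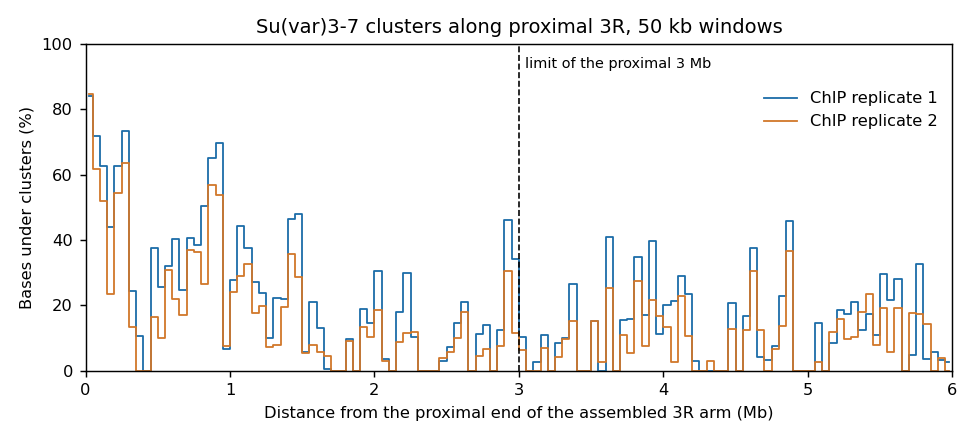
Percent of bases under clusters in 50 kb windows (y axis) against distance from the proximal end of the assembled 3R arm in Mb (x axis), for each ChIP replicate, out to 6 Mb. The dashed line marks the 3 Mb limit. Both replicates are highest at the proximal end, and the longest stretches without clusters lie beyond 1.5 Mb.

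Cover declined over the first 9 Mb of the arm. In consecutive blocks of 3 Mb, cover was 25.2% and 18.3% in the first block for replicates 1 and 2, 12.8% and 9.18% in the second, and 7.18% and 4.96% in the next. In the 6 blocks beyond 9 Mb it lay between 2.79% and 5.71% in replicate 1 and between 2.72% and 5.50% in replicate 2. The first block was the most covered of the 9 in both replicates. The second block was also above every block beyond 9 Mb in both replicates.

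**Figure D2:**
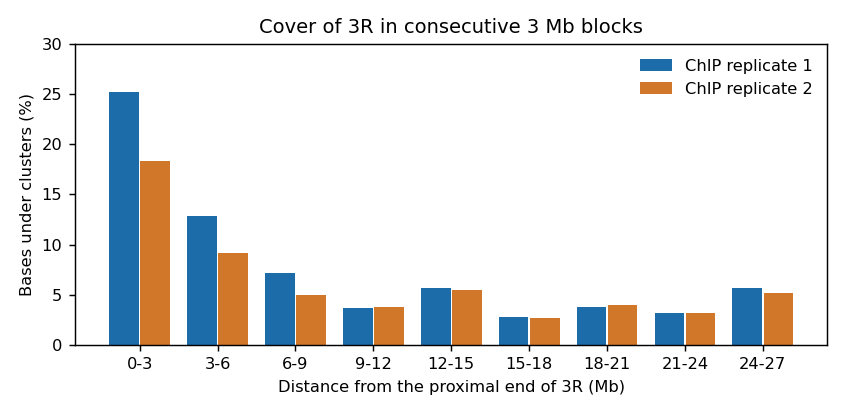
Percent of 3R bases under clusters (y axis, bars from 0) in 9 consecutive blocks of 3 Mb from the proximal end (x axis), for the 2 ChIP replicates. The first block stands at 25.2% and 18.3%, and the blocks beyond 9 Mb are at or under 5.71%.

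The clusters were more numerous in the proximal 3 Mb, while the typical cluster was little wider and little more enriched than elsewhere on the arm. There were 78.0 and 63.3 clusters per Mb in replicates 1 and 2 there, against 24.0 and 22.3 per Mb in the rest of 3R, a ratio of 3.05 ± 0.29 (SD, n = 2). The median width was 2134 bp and 2168 bp in the proximal 3 Mb, against 1921 bp and 1936 bp in the rest. That is a ratio of 1.12 ± 0.01 (SD, n = 2). The median log2 enrichment was 0.62 and 0.64 in the proximal 3 Mb and 0.60 and 0.61 in the rest, a difference of 0.024 ± 0.005 (SD, n = 2). Among clusters at or above the median value of each list the sign differed between the replicates, at 0.08 in replicate 1 and -0.01 in replicate 2. Over all clusters of the genome the medians were 0.70 and 0.73, so the typical proximal 3R cluster was below the genome-wide median in both replicates. When each cluster was weighted by its width, the difference between the proximal 3 Mb and the rest of 3R was larger, at 0.12 in replicate 1 and 0.09 in replicate 2. Wide clusters were few, and more frequent than in the rest of 3R but not than in the lists as a whole. Clusters of 10 kb or more made up 7 of 234 in replicate 1 and 2 of 190 in replicate 2, or 2.99% and 1.05%, against 4.04% and 4.81% of all clusters in those lists. In the rest of 3R they made up 0.50% and 0.36%.

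Within the proximal 3 Mb, cover was lower in each Mb farther from the centromere in both replicates. The first Mb was 43.3% and 33.4% covered in replicates 1 and 2, the second 19.6% and 14.0%, and the outermost 12.8% and 7.62%. Cover of the first Mb was 2.88 ± 0.30 times that from 1 to 3 Mb (SD, n = 2). Width and enrichment followed the same order. The median width was 2867 bp and 2579 bp in the first Mb, 2077 bp and 2042 bp in the second, and 1731 bp and 1833 bp in the outermost. The median log2 enrichment was 0.67 and 0.69, then 0.63 and 0.64, then 0.56 and 0.59. Each of these medians had the same order of the 3 Mb in the 2 replicates.

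The decrease was not even when it was followed in windows of 250 kb. The innermost window, from 1 to 250000, was 65.1% covered in replicate 1 and 55.2% in replicate 2. The next window dropped to 29.2% and 18.6%. A second rise lay at 750001 to 1000000, with 46.1% and 36.3%, above the windows on either side of it in both replicates. The step at 1.5 Mb was the sharpest change further out: the window from 1250001 to 1500000 was 29.7% and 19.8% covered, and the window from 1500001 to 1750000 was 8.10% and 4.79% covered. All 6 windows of the first 1.5 Mb had more cover than any of the 99 windows of the rest of the arm, in both replicates. The 1.5 Mb cut was set at this step, seen in the same windows, so the separation is a description only. The lowest of the 6 stood at 29.2% and 18.6%, and the highest outside, from 3750001 to 4000000, at 23.7% in replicate 1. In replicate 2 the highest outside was 17.4%, from 12000001 to 12250000. The 6 windows from 1.5 to 3 Mb overlapped with the rest of the arm, with 2.68% to 21.3% in replicate 1 and 3.16% to 11.3% in replicate 2. The lowest of them, from 2250001 to 2500000, was below the median window of the rest of 3R, which was 4.14% and 4.17% covered. Without the innermost 250 kb, a setting chosen only once these profiles were known, proximal cover was 3.44 times that of the rest of 3R, and the first Mb 2.32 times the outer Mb.

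Long stretches without any cluster interrupted the outer part of the region. The longest, from 2296843 to 2471859, spanned 175.0 kb with no cluster in any of the 3 lists. It was followed by 1686167 to 1826620, at 140.5 kb, and by 2789961 to 2868920, at 79.0 kb. Of the 5 longest, only 378571 to 448206, at 69.6 kb, lay in the first Mb. It falls in the window from 250001 to 500000, of 29.2% and 18.6% cover, which follows the innermost window. The last of the 5, from 1850250 to 1919758, spanned 69.5 kb. Stretches of 50 kb or more numbered 6 in the proximal 3 Mb, or 2 per Mb, against 106 in the rest of the arm, or 4.26 per Mb. The median distance between neighbouring clusters of the replicate-set list was 1361.5 bp over the whole region, and it was 1060.5 bp in the first Mb, 1352 bp in the second and 2086 bp in the outermost.

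Ranked by replicate-set value, the most enriched regions found in both replicates lay mostly at the innermost end. Of the 10 highest, 5 started within the first 250 kb and 8 within the first Mb. The first 250 kb held 35 of all 353 members, and the first Mb held 63 of the 127 members found in both. In replicate 2 alone the 3 highest clusters lay beyond 2 Mb, at 2005557 to 2006905 (1.94), 2736955 to 2739159 (1.90) and 2000838 to 2004706 (1.68). The first of them overlapped no cluster of replicate 1. Of the 19 replicate 2 clusters above 1, 14 lay in the first Mb and 4 in the outermost. In replicate 1 these were 18 and 5 of 26. Of all clusters of the region, the first Mb held 99 of 190 in replicate 2 and 111 of 234 in replicate 1. The outermost Mb held 33 and 55. The highest by replicate-set value was 3R 132399 to 140074, 7.68 kb wide, with a log2 enrichment of 1.54 in the replicate-set list, 1.72 in replicate 1 and 1.40 in replicate 2. The cluster at 43687 to 49899, 6.21 kb wide, reached the same replicate-set value of 1.54, with 1.76 and 1.30 in replicates 1 and 2. These regions differed by less than the replicates did at either, so their order is not resolved.

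Next to it lay 2 more of the 10. The cluster at 37291 to 42712 had 1.36 in the replicate-set list, with 1.57 in replicate 1 and 1.13 in replicate 2. The cluster at 56244 to 69499, 13.3 kb wide, had 1.32, with 1.47 and 1.13. Replicate 1 was the higher of the 2 libraries at each of these 4 regions. The cluster at the very end of the assembled arm, from 1 to 25726, had a log2 value of 1.22. Clusters of replicate 1 lay over 97.1% of it and those of replicate 2 over 98.6%. It was divided into 3 clusters in replicate 1, the first with 1.55 over 17.0 kb, and into 4 in replicate 2, the first with 1.24 over 13.5 kb.

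The other 5 of the 10 lay farther out and ranged from 2.08 to 10.9 kb in width. 3R 2736405 to 2739169, 2.77 kb wide, had a log2 enrichment of 1.49, with 1.38 in replicate 1 and 1.90 in replicate 2. 3R 2000786 to 2004893, 4.11 kb wide, had 1.38, with 1.71 and 1.68. Its replicate 1 cluster covered 48.0% of it and its replicate 2 cluster 94.2%. The window that holds the first of these sites, from 2500001 to 2750000, was only 10.9% and 7.66% covered. 3R 564176 to 575072 had 1.20 over 10.9 kb, and its widest replicate clusters had 1.42 and 1.30. At 3R 795522 to 797597 the replicates were farthest apart of all one-to-one pairs in the region, with 0.67 in replicate 1 and 1.58 in replicate 2 around a replicate-set value of 1.16. The last of the 10, 3R 291930 to 299538, had 1.14, with 1.28 and 1.06.

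The widest clusters all lay in the first Mb. After the terminal cluster of 25.7 kb, they were 845717 to 865890 (20.2 kb, log2 enrichment 0.70), 269383 to 285617 (16.2 kb, 0.97), 934437 to 950310 (15.9 kb, 0.76) and 919074 to 933171 (14.1 kb, 0.52). The clusters that start at 845717, 919074 and 934437 belong to the second rise between 750001 and 1000000. Each of the 5 was divided in both replicates, into 2 or 3 clusters in replicate 1 and 3 or 4 in replicate 2. Clusters of replicate 2 covered 36.6% of the last of them, against 82.0% for replicate 1. Of the 13 members of 10 kb or more, 12 started in the first Mb, which held 134 of all 353 members. All 13 overlapped clusters of both replicates by at least 1 bp, a rule that wide clusters meet more easily by width alone. The share among all 430 clusters of 10 kb or more in the list is not given here, so the count shows no particular support.

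Width and enrichment went together within the region. Across clusters, Spearman's rho between them was 0.75 in replicate 1 (n = 234), 0.75 in replicate 2 (n = 190) and 0.62 in the replicate-set list (n = 353). Clusters of a list share a library and its depth, so these are descriptions of the lists. In replicate 1 the 40 clusters of 5 kb or more had a median log2 enrichment of 0.99, against 0.60 for the 194 narrower ones. In replicate 2 the 22 clusters of 5 kb or more had 0.90, against 0.64 for the other 168.

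**Figure D3:**
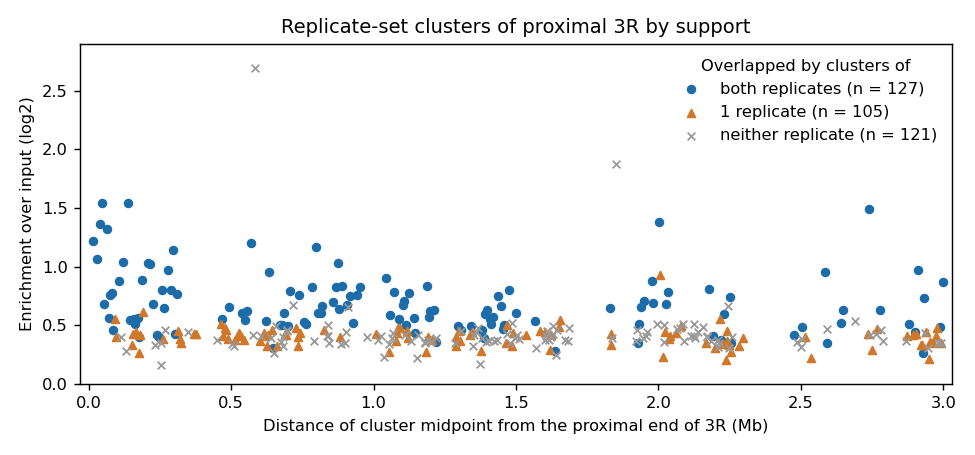
Log2 enrichment over input of each of the 353 replicate-set clusters (y axis) against the distance of its midpoint from the proximal end of 3R in Mb (x axis). Circles overlap clusters of both replicates (127), triangles of 1 replicate (105) and crosses of neither (121). Of the 15 circles above 1, 13 lie in the first Mb, which holds 63 of the 127 circles. The 2 highest points of all are crosses.

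Support by both replicates was most frequent in the first Mb. Of the 353 members, 127 (36.0%) were overlapped by at least 1 bp by clusters of both replicates, against 30.7% of all clusters in the list and 20.6% of those in the rest of 3R. The share in the proximal 3 Mb is near that of the whole list. Another 105 (29.7%) overlapped clusters of 1 replicate, against 25.3% of the whole list. The remaining 121 (34.3%) overlapped none, against 44.1% of the whole list and 51.1% in the rest of 3R. Because the replicate set combines the same libraries, the shares give no independent evidence of binding. The share found in both was 47.0% in the first Mb (63 of 134), 32.0% in the second (40 of 125) and 25.5% in the outermost (24 of 94). The 95% exact binomial (Clopper-Pearson) intervals were 38.3 to 55.8%, 23.9 to 40.9% and 17.1 to 35.6%. They cover counting error only and treat clusters of 1 list as independent. Cover and the median width of members fell in the same order, with widths of 2434, 1877 and 1638 bp. A wider cluster under higher cover meets the 1 bp rule more easily, and the shares were not compared at equal cover or width.

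Clusters found in both replicates were wider and more enriched than the others. At the median they were 4566 bp wide with a log2 enrichment of 0.63, and they held 64.1% of the bases of all members. At the median, those with no overlap in either replicate were 1288 bp wide with 0.39, and they held 15.7% of the bases. A wider cluster meets a 1 bp rule more easily by its width alone, and clusters were not compared at equal width. Members found in replicate 1 only numbered 82 (23.2%), against 14.2% of the whole list, and those found in replicate 2 only numbered 23 (6.52%), against 11.1%.

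The highest values of the member list had no support in either replicate. 3R 582289 to 583289 had a log2 enrichment of 2.69 over 1001 bp, the smallest width in the list, and 3R 1849185 to 1850249 had 1.87 over 1065 bp. The same values occurred 22 and 9 times in the whole list. The next such member, 3R 714355 to 716301, was far lower at 0.67. 3R 582289 to 583289 and 3R 1849185 to 1850249 were narrower than 1301 bp, the smallest cluster width in either replicate list. Of the members found in neither replicate, 63 of 121 were under 1301 bp, against 0 of 127 found in both. Over the whole list the counts were 2723 of 5054 and 0 of 3519. Whether the lists' different minimum widths account for the missing overlap was not tested. Values that occur more than once in the list made up 62.0% of the members found in neither replicate and 15.0% of those found in both, against 42.8% of all clusters in the list. The number of reads behind repeated values is unknown, and their part in these values was not tested.

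The bases called in the replicates were compared next. Clusters of both replicates shared 478 kb of the 828 kb under either, or 57.7%. In the rest of 3R the shared part was 39.4%. In the proximal 3 Mb of 2L and 3L it was higher than on 3R, at 75.7% and 75.4%. Within proximal 3R it was 66.5% in the first Mb, 52.1% in the second and 38.8% in the outermost, so the outermost Mb was close to the rest of the arm. Such a share rises with cover alone, cover fell in the same order, and the overlap was not compared at equal cover. The overlap was uneven between the libraries. Clusters of replicate 2 lay 87.0% within those of replicate 1 by bases, while 63.2% of the bases of replicate 1 were also called in replicate 2. By number, 164 of 190 clusters of replicate 2 (86.3%) and 147 of 234 clusters of replicate 1 (62.8%) overlapped the other list, against 74.2% and 69.4% of all clusters of replicates 2 and 1. Cover was higher in replicate 1 in 11 of the 12 windows of 250 kb.

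The same direction appeared in the enrichment values. In the region, 109 clusters of replicate 1 overlapped 1 cluster of replicate 2 and the reverse. Replicate 1 was higher in 72 of these pairs (66.1%), by 0.07 at the median. In the rest of 3R it was higher in 114 of 286 pairs (39.9%), with a median difference of -0.03. The share was 67.9%, 61.8% and 68.2% in the first, second and outermost Mb. Pearson's r between the replicates over the 109 pairs was 0.68 and Spearman's rho 0.64, as a description across clusters that share their libraries. In the rest of 3R they were 0.67 and 0.41, on proximal 2L 0.86 and 0.80, and on proximal 3L 0.85 and 0.86. Of the 109 pairs, 4 were more than 0.5 apart, against 23 of 286 in the rest of 3R, 8 of 123 on 2L and 9 of 165 on 3L. Beside 3R 795522 to 797597, the farthest of the 109 was at 951797 to 955093 in replicate 1, with 0.50 against 1.31 in replicate 2. Whether depth differed between the libraries was not tested, because the lists hold no counts.

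**Figure D4:**
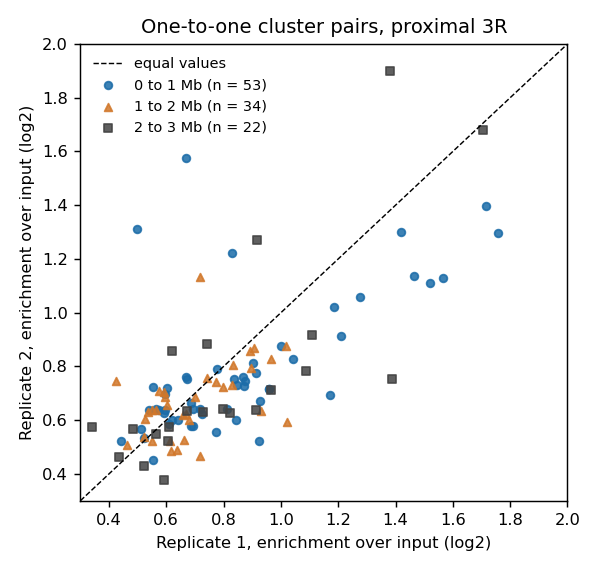
Log2 enrichment in replicate 2 (y axis) against replicate 1 (x axis) for the 109 pairs of proximal 3R clusters that overlapped one to one, marked by distance from the proximal end. The dashed line marks equal values. 72 of the pairs lie below it, where replicate 1 is higher, and the 2 pairs farthest from the line lie above it in the first Mb.

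The proximal 3 Mb of 3R were less covered than the matching regions of 2 other autosome arms, 2L and 3L. Cover of 3R averaged 21.8% ± 4.90, against 36.6% ± 1.45 on 2L from 20011545 to 23011544 and 48.1% ± 1.30 on 3L from 21543558 to 24543557 (SD, n = 2 each). The difference was -14.8 ± 3.44 percentage points to 2L and -26.3 ± 3.60 to 3L (SD, n = 2), with the same sign in both replicates and larger than the spread between them. By number of clusters 3R was close to 2L, with 78.0 and 63.3 per Mb in replicates 1 and 2 against 79.0 and 69.0, but the direction was the opposite in the replicate-set list, with 117.7 per Mb on 3R against 103.3 on 2L. On 3L there were 106.3 and 98.7 per Mb in replicates 1 and 2, and 126.0 in the replicate-set list. The clusters of proximal 3R were narrower, at 0.77 ± 0.001 of the median width on 2L and 0.74 ± 0.05 of that on 3L (SD, n = 2). The median log2 enrichment on 3R differed by -0.13 ± 0.03 from that on 2L and by -0.25 ± 0.03 from that on 3L (SD, n = 2).

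The arms also differed in how far dense cover reached. In the first 1.5 Mb, windows of 250 kb with at least 50% cover numbered 1 of 6 in both replicates on 3R, 5 and 4 of 6 on 2L, and 6 of 6 in both replicates on 3L. The mean of the replicates ranged from 23.9% to 60.1% over those windows on 3R, from 27.1% to 86.8% on 2L and from 59.8% to 76.3% on 3L. Clusters of 10 kb or more made up 3.68% of the replicate-set clusters on 3R, 10.6% on 2L and 13.8% on 3L, against 3.75% of the whole list. Of the replicate-set clusters of these regions, 36.0% on 3R were found in both replicates, against 47.4% on 2L and 52.1% on 3L. Cover and cluster width were also larger on 2L and 3L, and these shares were not compared at equal cover or width. Whether the assembled arms begin at like distances from the centromere cannot be told from these lists.

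**Figure D5:**
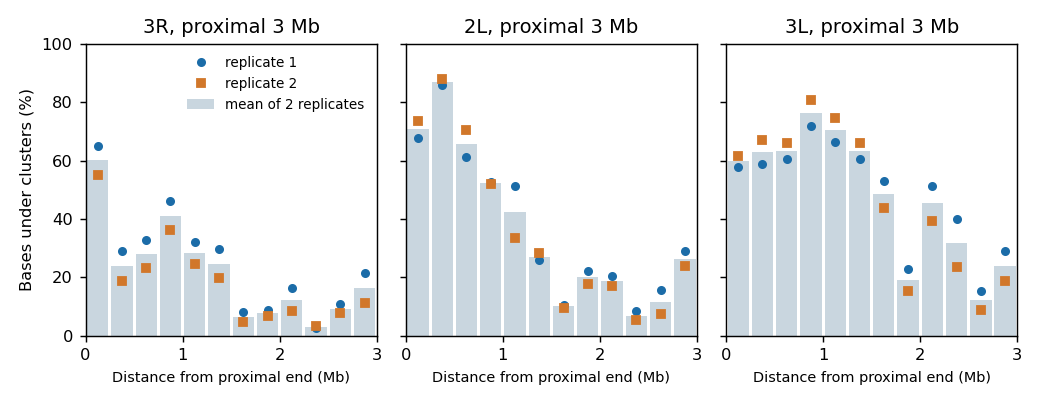
Percent of bases under clusters (y axis) in windows of 250 kb against distance from the proximal end in Mb (x axis) for the proximal 3 Mb of 3R, 2L and 3L. Bars are the mean of the 2 replicates, circles replicate 1 and squares replicate 2. On 3R only the innermost bar exceeds 50%, against several on 2L and 3L, and replicate 1 lies above replicate 2 in the 6 innermost windows of 3R and below it in those of 3L.

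At the limit itself, the last member, 3R 2994359 to 3002453, ran past base 3000000 with a log2 enrichment of 0.87, and was 1.09 in replicate 1 and 0.78 in replicate 2. The members before it, 2992707 to 2994207 and 2989640 to 2991060, both had 0.35, the first found in replicate 1 and the second in neither. The nearest clusters outside were 3003742 to 3005517, 3005952 to 3007028 and 3010292 to 3011579, with 0.36, 0.40 and 0.32, of which the first overlapped a cluster of replicate 1 and the others none. None of the 5 depleted regions of the replicate-set list lay in the proximal 3 Mb.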

How the data were processed

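ChIP and input libraries of Oregon-R larvae were sequenced, and the submitters' processing notes name the aligner Bowtie 0.12.7. The authors deposited 1 list of enriched clusters for each ChIP replicate and 1 for the replicate set, on FlyBase release 5 per the file headers. How clusters were called, with what thresholds, and how the replicates were combined is not stated there or in the labels. The authors' value of a cluster was read as log2 enrichment of ChIP over input. The base was inferred, since frequent repeated values lay 1 or 0.58 (log2 of 1.5) apart.

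Cover was the percent of bases under at least 1 cluster, without removing assembly gaps or unmappable bases. A cluster running past the end of its sequence (1 in each list) was clipped. Clusters of 3R were assigned by their start, and those of 2L and 3L, whose proximal ends are at high coordinates, by their end. Overlap meant at least 1 bp. Values are given per replicate with SD (n = 2), and no resampling was done. Named regions were the 10 highest members found in both replicates, the 5 widest, the first, the 3 nearest each side of the limit, the 3 highest found in neither, the 5 longest cluster-free stretches and windows of 250 kb. The 1.5 Mb cut, the 10 kb, 5 kb, 50 kb and 0.5 thresholds and the replicate pairs were chosen after the data had been seen. The members and lists were chosen with earlier results of these data known. The interval functions were tested on simulated data in 20 draws. No release 5 genome was used, so no gene or sequence is given. Analyses used Python 3.11.15, numpy 2.4.6 and scipy 1.17.1.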

Additional observations from a re-analysis of the deposited data

How the results depend on the processing

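Of 100 alternative values, 52 moved by less than the spread between replicates (or lay within the 95% binomial interval, for the 2 measures of overlap) and 48 moved further. Leaving out either replicate moves a mean by less than that spread whatever the values, so those settings were bound to count among the 52. No mean over the replicates changed direction. The interval for the replicate overlap treats bases as independent, so a value outside it says nothing about stability. That for the share found in both treats clusters of 1 list as independent. Lying within or outside it is a label only. With clusters at or above the median value of each list, proximal cover was 11.8%, its ratio to the rest of 3R 6.03, that of the first Mb to the others 4.17, the log2 difference 0.037 ± 0.068 (SD, n = 2, with opposite signs in the replicates), the width ratio 1.51 and the replicate overlap 47.2%. Merging clusters closer than 1 kb gave a width ratio of 1.35, an overlap of 58.2% and 42.2% of members found in both replicates. With clusters of at least 2 kb the ratios were 5.23 and 3.62, the log2 difference 0.044, the overlap 60.1% and the share found in both 50.0%. The 5000 highest clusters gave 0.041 on the log2 scale and a width ratio of 1.27. The replicate-set list gave 36.0% cover, ratios of 2.87 and 2.01, 0.017 on the log2 scale and a width ratio of 1.23. By clusters per Mb the ratios were 3.05 and 1.99, and 3R differed from 2L by -3.33 and from 3L by -31.8 clusters per Mb, while the replicate-set list had more clusters per Mb on 3R (117.7) than on 2L (103.3). Bases under both replicates gave 15.9% cover and ratios of 5.35 and 3.55. With a 2 Mb limit cover was 27.6%, the ratio 5.03, the log2 difference 0.051, the width ratio 1.22, the differences to 2L and 3L -19.3 and -30.4 percentage points and the overlap 61.8%. With a 4 Mb limit the width ratio was 1.10, the difference to 3L -21.3 and the overlap 55.6%. Leaving out the proximal 100 kb gave 2.56 for the first Mb to the others, a width ratio of 1.09 and an overlap of 54.4%. Leaving out 250 kb, a setting chosen after the results were known, gave ratios of 3.44 and 2.32, 0.018 on the log2 scale and a width ratio of 1.08. The log2 difference was 0.11 as a median over bases and 0.060 among clusters whose value occurs once, also a setting chosen after the results were known. Requiring 50% of a cluster to be overlapped left 28.9% found in both. Beyond what the construction of each list or window fixes, the cause was not tested.

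Leaving out each replicate in turn gave 18.3 to 25.2% cover, ratios of 3.77 to 4.44 and 2.67 to 3.09, a log2 difference of 0.021 to 0.027, a width ratio of 1.11 to 1.12, and differences of -17.2 to -12.3 percentage points to 2L and -28.8 to -23.7 to 3L. No paired analysis was possible because no test was made and the inputs enter only through the cluster values. Ratios and differences between regions were formed within each replicate. Unknown read depth limits how firmly single cluster values can be read.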

Other observations

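The order of the replicates differed between the proximal regions. In the 6 windows of 250 kb nearest the centromere, replicate 1 had the higher cover in 6 of 6 on 3R, by 7.49 to 10.5 percentage points. It was higher in 2 of 6 on 2L and in 0 of 6 on 3L, where it was lower by 3.78 to 8.83 points. From 1.5 to 3 Mb replicate 1 was higher in 5 of 6 windows on 3R and in 6 of 6 on both 2L and 3L. Among clusters that overlapped one to one in the proximal 3 Mb, replicate 1 had the higher log2 enrichment in 66.1% of 109 pairs on 3R, 48.0% of 123 on 2L and 36.4% of 165 on 3L. These windows and pairs were chosen after the data had been seen, they share the same 2 libraries, and the difference between arms was not tested.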
